A study of Mus musculus with 6 samples.

Results

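Endothelial lipid uptake and handling was followed through 8 genes, Fabp4, Fabp5, Cd36, Lpl, Lipg, Pparg, Gpihbp1 and Scarb1, taken by symbol out of 18193 genes that the array covered under a symbol of their own. They were read in cultured mouse lymphatic endothelial cells (LEC), the cells that line lymphatic vessels, on 6 Affymetrix arrays of 45101 probe sets, 3 of tumour LEC and 3 of normal dermal LEC. Tumour LEC came from T241/VEGF-C/GFP fibrosarcomas, tumours of the mouse line T241 carrying the lymphatic growth factor VEGF-C and green fluorescent protein, in C57BL/6 mice whose age and sex the labels do not give. Normal dermal LEC were taken from the skin of the tail of 8-week old females of that strain. Both kinds of LEC were cultured in EGM-2, an endothelial growth medium, on gelatin, and picked with LYVE-1 antibodies and magnetic beads, although the label text for the tumour cells runs into that for skin and leaves their last steps unclear. Tumours were taken apart with enzymes and skin with dispase and scraping, and the majority of fibrosarcoma cells were lifted off the tumour cultures before the LEC, so tumour origin, isolation and any leftover tumour cells cannot be told apart as sources of a difference. Array titles name the tumour group as tumour cells, while the source field names LEC, which is the reading used. No label states that replicates are separate cultures or animals, so p-values measure the spread between these arrays only, which may be technical. The array medians were 2.99 to 3.02 on 5 arrays and 3.15 on tumour replicate 3, and centring them left the count of members past the threshold at 0.

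Endothelial cells pass fatty acids from lipoproteins in the lumen to the tissue around them. Lipoprotein lipase frees the fatty acids at the vessel wall, CD36 takes them up, and fatty acid binding proteins carry them inside the cell. PPAR-gamma is a fatty acid sensing nuclear receptor, and Fabp4, Cd36 and Lpl are textbook targets of it in fat cells and macrophages. Lymphatic vessels have a further part in lipid traffic, since those of the gut collect dietary fat as chylomicrons.

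None of the 8 genes passed the test of tumour against normal LEC. Tumour LEC averaged 14.27 ± 0.32 and normal LEC 13.23 ± 0.79 for Fabp4 (log2 expression, SD over 3 arrays each), a 2.06-fold higher mean with a 95% interval of 0.989-fold to 4.30-fold. Lpl and Pparg had lower means in tumour LEC, and both varied widely between the tumour arrays. Fabp5 and Scarb1 were nearly level between the groups, Cd36 and Gpihbp1 were at background on some arrays, and Lipg was at background on all 6. Background on an array means a value at or below that array's highest control probe set for absent bacterial RNA, 3.40 to 3.71 by array.

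Of the 7 genes that passed the filter on low values, 0 had an adjusted p under 0.05 (limma over 12954 genes, Benjamini-Hochberg), against 0.216% of all genes tested, 0.0463% higher and 0.17% lower in tumour LEC. The count of members at an unadjusted p under 0.05 was also 0, against 15.5% of all genes, and for 0 of the 7 did the 3 tumour arrays separate from the 3 normal arrays, against 32.4% of all genes, 20.9% higher and 11.6% lower. A difference of at least 1 log2 unit was seen for 1 member upward, Fabp4, and 1 downward, Lpl, against 3.84% and 6.76% of all genes. The median difference over the 7 was 0.078 log2 units, beside 0.028 over all genes tested, with 4 positive and 3 negative. Without tumour replicate 1 the median of the 7 was -0.83, and the count past the threshold was 0 with any array left out. Lipg, the gene under the filter, is described from a fit with no filter.

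**Figure D1:**
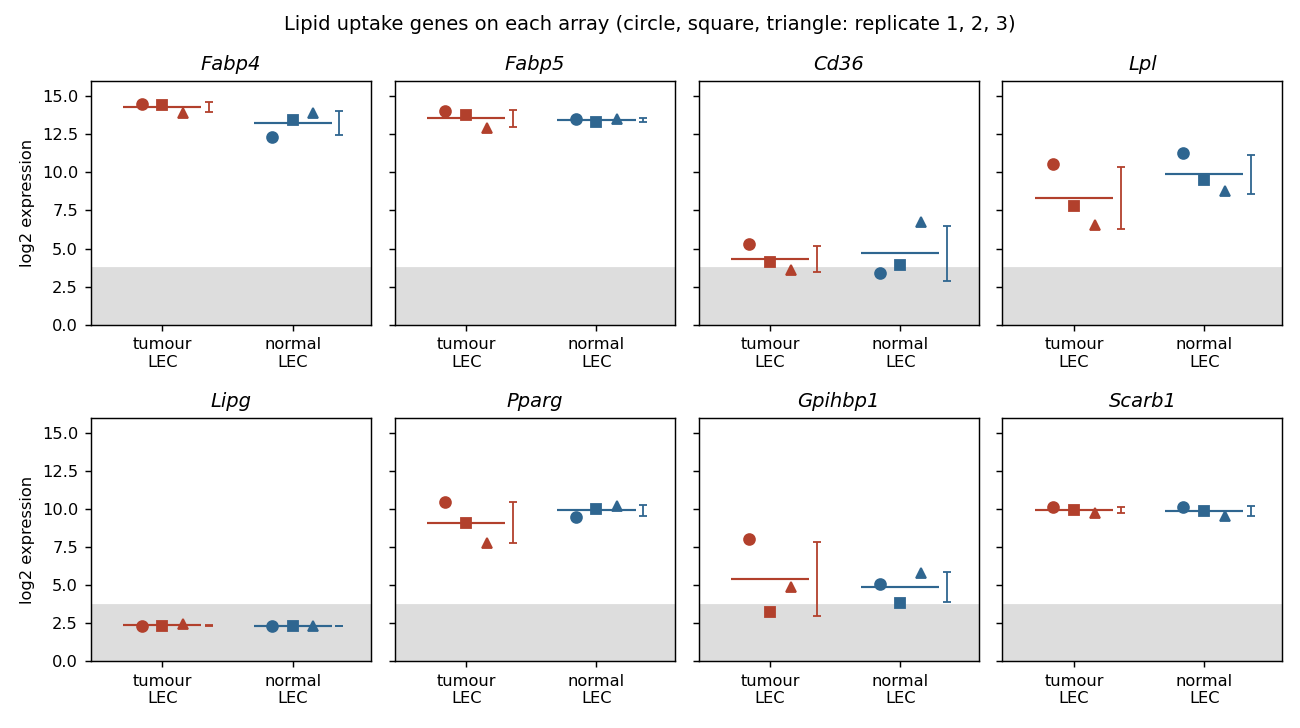
Log2 expression (vertical axis) of the 8 genes on each array, tumour LEC in red left of normal LEC in blue. Circles, squares and triangles are replicates 1, 2 and 3, lines are group means, bars are the SD (n = 3), and the grey band reaches to the highest background limit of any array (3.71). Fabp4 and Fabp5 lie above 12 on all arrays, Lipg lies inside the band on all arrays, and Lpl, Pparg and Gpihbp1 have their widest spread in tumour LEC.

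Fabp4 and Fabp5 encode cytosolic proteins that bind long-chain fatty acids, the first known from adipocytes, macrophages and capillary endothelium and the second from epidermis and also endothelium. In the RefSeq table both genes lie on chromosome 3, with 2 other protein-coding genes, Pmp2 and Fabp9, between them. Fabp4 read 14.48, 14.43 and 13.91 on tumour replicates 1, 2 and 3, against 12.36, 13.42 and 13.91 on normal replicates 1, 2 and 3. The groups met at tumour replicate 3 and normal replicate 3, whose values were equal, and tumour LEC were higher in 8 of the 9 pairs of a tumour and a normal array. The log2 difference was 1.04 (SE 0.43, adjusted p = 0.328). The low end of the normal range was replicate 1, the array on which fibroblast markers were highest, and without it the difference was 0.61. In a whole culture, fewer cells of a type and less RNA per cell cannot be told apart.

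The other 3 probe sets of Fabp4, read in a fit over all probe sets, had differences of the same sign. The second averaged 14.15 ± 0.37 on the tumour arrays and 12.84 ± 1.08 on the normal arrays (SD over 3 arrays each) and differed by 1.32 (SE 0.59). The third, at background on 3 arrays, differed by 0.54 (SE 0.71), and the last was at background on all 6. Fabp5 read 14.01, 13.74 and 12.94 on tumour replicates 1, 2 and 3, against 13.52, 13.32 and 13.51 on normal replicates 1, 2 and 3. The tumour arrays lay on both sides of the narrow normal range. The difference was 0.11 (SE 0.29, adjusted p = 0.841), and the 95% interval of 0.654-fold to 1.79-fold leaves out a 2-fold change in either direction. Its other probe set differed by 0.14 (SE 0.33).

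Cd36 and Scarb1 encode the scavenger receptors CD36, a fatty acid translocase, and SR-BI, the receptor for high density lipoprotein. Cd36 read 5.28, 4.11 and 3.58 on tumour replicates 1, 2 and 3, against 3.38, 3.92 and 6.74 on normal replicates 1, 2 and 3. Tumour replicate 3 and normal replicate 1 were at background, and the highest value was on normal replicate 3. The difference of -0.36 (SE 0.98, adjusted p = 0.851) had an interval of 0.144-fold to 4.23-fold, and its sign turned without normal replicate 3 (0.67) or tumour replicate 3 (0.014). A further probe set of Cd36 was at background on 4 arrays and also highest on normal replicate 3, at 5.63, and the last was at background on all 6. The RefSeq promoter table, build GRCm38.p6, held windows for 2 of the 8 genes, Cd36 and Pparg.

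The Cd36 window is shown because the gene is a textbook target of PPAR-gamma. It covers the 250 bases before the start, read 5′ to 3′ along the gene. Capitals mark AGGTCA, the core motif of PPAR and other nuclear receptor sites, or TGACCT, the same motif on the opposite strand.
Cd36, chr5:17835897-17836146, minus strand: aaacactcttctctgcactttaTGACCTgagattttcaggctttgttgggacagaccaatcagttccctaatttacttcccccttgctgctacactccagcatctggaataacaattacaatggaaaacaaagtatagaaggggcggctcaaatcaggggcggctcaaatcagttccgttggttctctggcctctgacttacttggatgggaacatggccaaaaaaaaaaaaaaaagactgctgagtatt
It held 1 match, and 14% of 32851 such windows of all genes in the table hold at least 1 on either strand. The full direct repeat of the motif with a spacer of 1 base, AGGTCANAGGTCA, was in 0 of the windows of Cd36 and Pparg, and in 0.0335% of all windows.

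Scarb1 was steadier than Cd36. It read 10.16, 9.95 and 9.72 on tumour replicates 1, 2 and 3, against 10.16, 9.90 and 9.53 on normal replicates 1, 2 and 3. The ranges lay almost on top of each other, with a difference of 0.078 (SE 0.21, adjusted p = 0.846) and an interval of 0.738-fold to 1.51-fold. Its other probe sets differed by 0.13 (SE 0.30) and -0.090 (SE 0.32), so the sign was not the same across probe sets, and it also turned without tumour replicate 1 (-0.030) or normal replicate 3 (-0.089). The SD of Scarb1 on the tumour arrays, 0.22, was below the median of 0.26 over all genes tested. On the normal arrays its SD, 0.32, was above the median of 0.205.

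Lpl encodes lipoprotein lipase, which hydrolyses the triglycerides of chylomicrons and very low density lipoprotein. It is made mainly by adipocytes, muscle and macrophages and carried to the lumen of blood capillaries by GPIHBP1, the anchoring protein that Gpihbp1 encodes. Lpl read 10.55, 7.80 and 6.55 on tumour replicates 1, 2 and 3, against 11.28, 9.53 and 8.80 on normal replicates 1, 2 and 3. Tumour replicate 1 lay inside the normal range and the other tumour arrays lay below it. The difference was -1.57 (SE 1.18, adjusted p = 0.534), a 2.96-fold lower mean whose interval, as tumour over normal, was 0.0441-fold to 2.59-fold. It was -2.69 without tumour replicate 1 and -0.69 without tumour replicate 3. The tumour SD of 2.05 exceeded that of 99.3% of all genes tested. Its other probe set, above background on all arrays, differed by -0.47 (SE 0.48).

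Gpihbp1 had the widest range of the 8 genes. It read 8.04, 3.23 and 4.92 on tumour replicates 1, 2 and 3, against 5.08, 3.85 and 5.80 on normal replicates 1, 2 and 3. Tumour replicate 1 was the highest of all arrays, and tumour replicate 2 was the lowest and at background. The difference of 0.49 (SE 1.29, adjusted p = 0.845) had an interval of 0.153-fold to 12.9-fold and was -0.83 without tumour replicate 1, 1.57 without tumour replicate 2 and -0.044 without normal replicate 2. The array has 1 probe set for it. Lipg encodes endothelial lipase, a phospholipase of endothelial cells that acts on high density lipoprotein. It read 2.35, 2.36 and 2.42 on tumour replicates 1, 2 and 3, against 2.33, 2.34 and 2.33 on normal replicates 1, 2 and 3. Its 3 probe sets were at background on all 6 arrays, so no fold change is given.

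Pparg read 10.45, 9.09 and 7.75 on tumour replicates 1, 2 and 3, against 9.49, 10.03 and 10.22 on normal replicates 1, 2 and 3. Tumour replicates 2 and 3 lay below all normal arrays and tumour replicate 1 lay above them. The difference was -0.81 (SE 0.69, adjusted p = 0.561), with an interval of 0.173-fold to 1.87-fold. It was -1.49 without tumour replicate 1 and -0.14 without tumour replicate 3. The tumour SD was 1.35 and the normal SD 0.38. Rxra, the partner with which PPAR-gamma binds DNA, differed by -0.44 (SE 0.24, adjusted p = 0.439), and it was named after its values were seen.

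Pparg was read through 1 probe set, with no separate value for transcripts from its different starts. The table lists 3 starts, and the windows that hold the core motif, 2 of them, are shown because Pparg is the transcription factor among the 8 genes. Capitals mark the motif as above.
Pparg, upstream window, chr6:115360894-115361143, plus strand: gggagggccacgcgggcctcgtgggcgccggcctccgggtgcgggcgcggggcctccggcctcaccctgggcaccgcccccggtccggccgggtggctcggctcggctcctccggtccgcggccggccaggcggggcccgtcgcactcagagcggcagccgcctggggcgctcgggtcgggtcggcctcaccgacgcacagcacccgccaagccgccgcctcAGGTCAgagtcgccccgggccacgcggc
Pparg, middle window, chr6:115362099-115362348, plus strand: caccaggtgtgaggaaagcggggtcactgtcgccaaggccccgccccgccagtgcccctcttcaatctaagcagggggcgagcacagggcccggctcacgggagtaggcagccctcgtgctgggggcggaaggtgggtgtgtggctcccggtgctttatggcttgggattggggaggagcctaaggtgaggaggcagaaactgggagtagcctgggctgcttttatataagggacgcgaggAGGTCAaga
The third window held no match. A match is a description of these letters and not of a bound site.

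**Figure D2:**
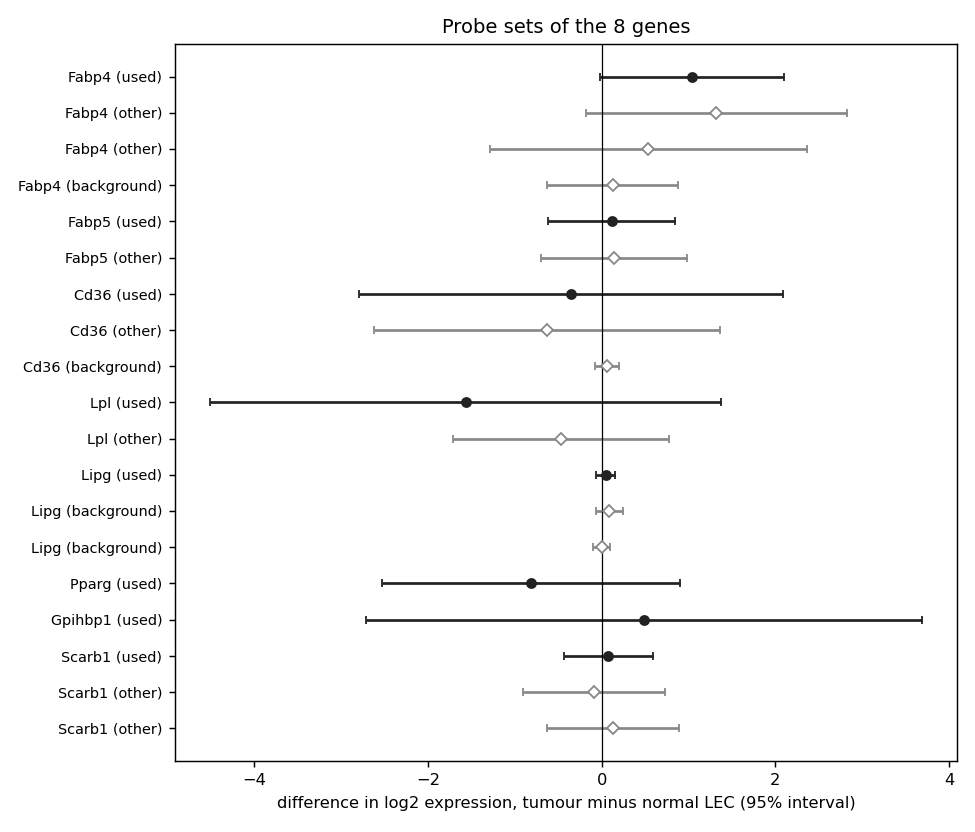
Difference in log2 expression between tumour and normal LEC (horizontal axis, tumour minus normal) for the 19 probe sets of the 8 genes, with 95% intervals from limma, fitted over genes for the probe sets used and over all probe sets for the others. Filled circles are the probe sets used, open diamonds the others, and "background" marks those at background on all 6 arrays. The intervals of all 19 include 0, and those of Lpl, Gpihbp1 and Cd36 are the widest among the probe sets used.

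The 7 genes above background shared an order within tumour LEC. All 7 were highest on tumour replicate 1 among the tumour arrays, beside 39.2% of the 11105 tested genes that exceeded background at least once. On tumour replicate 3, 6 of the 7 were lowest among the tumour arrays, beside 35.5% of those genes, and Gpihbp1 was lowest on tumour replicate 2. Some other lipid lists had a like order. Tumour replicate 1 was highest for 13 of 15 lipoprotein receptor and efflux genes and 11 of 13 cholesterol synthesis genes. It was also highest for 13 of 18 fatty acid synthesis and oxidation genes. Tumour replicate 3 was lowest for 8, 11 and 14 of them, though 7 of the 15 were lowest on tumour replicate 2. In the transport, lipase and lipid droplet lists tumour replicate 1 was highest for 6 of 12, 7 of 11 and 7 of 12. Tumour replicate 3 was lowest there for 6, 5 and 8. Nuclear receptors and co-regulators went another way, with tumour replicate 1 highest for 5 of 9 and tumour replicate 2 lowest for 6. The order is thus not particular to the 8 genes. The normal arrays had no such order, with 4 of the 7 highest on replicate 3 and 3 on replicate 1. Since the tumour arrays are not ordered by any label, this describes 3 arrays and not a condition.

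Markers of macrophages and leukocytes moved with that order. Of the 7 markers of that list above background, all 7 were highest on tumour replicate 1 among the tumour arrays. The summed linear signal of the 8 markers on the array was 3675, 547 and 166 on tumour replicates 1, 2 and 3, against 886, 711 and 2027 on normal replicates 1, 2 and 3. Cd68, a lysosomal protein of macrophages, read 10.88, 7.90 and 4.82 on tumour replicates 1, 2 and 3, and Adgre1, the F4/80 antigen, 5.77, 4.16 and 4.05. Ptprc or CD45 was at background on tumour replicates 2 and 3 and on all normal arrays and read 5.92 on tumour replicate 1, and Itgam was at background on all arrays. Normal replicate 3, where Cd36 was highest, had the highest leukocyte sum of the normal arrays. The part of such cells in the values of Lpl, Cd36, Pparg and Gpihbp1 was not tested.

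Pan-endothelial markers shared with Fabp4 a higher mean in tumour LEC, 9 of 10 of them with a positive difference, and a low point on normal replicate 1. Within tumour LEC they shared part of the order. On tumour replicate 1, 7 of the 10 were highest, beside 39.2% of all genes above background. On tumour replicate 2, 6 were lowest, beside 28.1%, and on tumour replicate 3, 3 were lowest, beside 35.5%. All 10 were highest on normal replicate 3 among the normal arrays, beside 27.0%. The summed signal of 10 pan-endothelial markers was 33101, 19392 and 22009 on tumour replicates 1, 2 and 3, against 9046, 13239 and 18328 on normal replicates 1, 2 and 3. Tumour replicate 2 had the lowest tumour sum, while Fabp4 was lowest on tumour replicate 3, and Kdr and Tie1 differed by only -0.10 and 0.022 between the groups. The 8 fibroblast markers summed to 12057, 13110 and 8173 on tumour replicates 1, 2 and 3 and to 41599 on normal replicate 1, while the remaining normal arrays had 12341 and 11876. Thy1 made up most of the tumour sums, at 13.54, 13.67 and 12.97 on tumour replicates 1, 2 and 3, against 12.58, 12.83 and 12.75 on normal replicates 1, 2 and 3. The collagens Col1a1, Col1a2 and Col3a1 and also Pdgfra, Pdgfrb and Dcn were lower on every tumour array than on every normal array, with Pdgfra at 5.74, 4.87 and 4.66 on tumour replicates 1, 2 and 3, against 11.75, 9.48 and 9.13 on normal replicates 1, 2 and 3. Pecam1 and Cdh5, adhesion molecules of endothelium, were above background on all 6 arrays, at 5.59 to 8.86 and 9.62 to 11.65. Lyve1, the target of the selection, read 13.65 to 14.91 and Prox1, the lymphatic fate factor, 7.73 to 8.92. The part of endothelial and fibroblast content in the values of Fabp4 and the other members was not tested.

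Adipocyte genes were at or near background, and 4 of 6 keratinocyte markers were at background on all arrays. Of the 5 adipocyte markers measured, Adipoq, Retn, Cidec and Lep were at background on all 6 arrays, and the summed signal of the 5 was 28.7 to 32.4 in tumour LEC and 27.5 to 29.5 in normal LEC. Krt14 was at background on all arrays, Krt5 read at most 4.46, and Krt10 was above background throughout, at 6.76 to 6.95 in tumour LEC and 7.09 to 7.17 in normal LEC. The 6 keratinocyte markers summed to 155 to 163 in tumour LEC and 173 to 181 in normal LEC. Of 7 blood capillary markers, Plvap (11.17 to 13.49), Emcn (8.95 to 12.70), Aqp1 (10.47 to 13.03) and Nos3 (3.62 to 4.94) were above background on all arrays, Rgcc on 5, and Car4 and Sox17 on none. The list of 7 summed to 26594, 16286 and 7039 on tumour replicates 1, 2 and 3. On normal replicates 1, 2 and 3 it summed to 9867, 7200 and 12051. The tumour sums thus fell in the same order as the leukocyte sums. Of the 5 capillary markers above background, 4 were highest on tumour replicate 1 among the tumour arrays. On tumour replicate 2, 3 were lowest, and on tumour replicate 3, 2 were lowest. The part of blood capillary cells in the values of the members was not tested. The 6 pericyte and smooth muscle markers summed to 2649 to 17684 in tumour LEC and 5483 to 18087 in normal LEC.

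**Figure D3:**
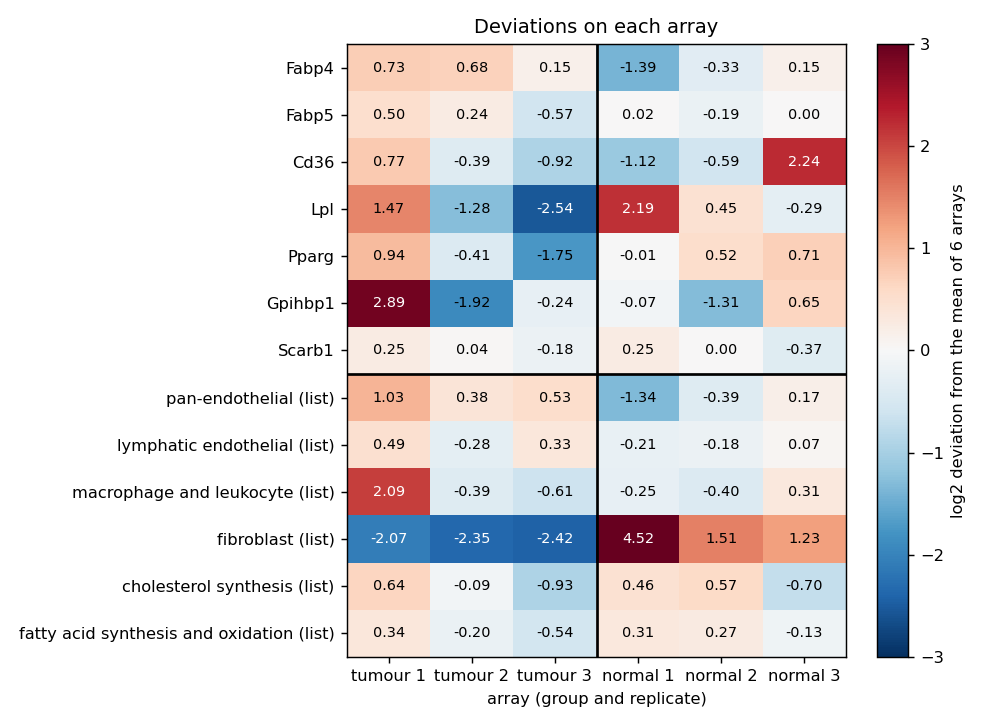
Deviation of log2 expression from the mean of the 6 arrays, by array (columns, tumour replicates left of normal replicates), for the 7 genes above background and for the median of 6 gene lists (rows). Colours saturate at 3 and the numbers give each value. Tumour replicate 1 is positive for all 7 genes and for every list shown but fibroblast (-2.07). Its list values run from 0.34 for fatty acid synthesis and oxidation to 2.09 for macrophage and leukocyte, with 1.03 for pan-endothelial. Normal replicate 1 is negative for Fabp4 (-1.39) and for the pan-endothelial list (-1.34).

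Around the 8 genes, 7 lists of lipid genes were read in the same fit. In none of the 7 lists did a gene pass the adjusted threshold. Of the 12 lipases and regulators of lipases tested, 3 had an unadjusted p under 0.05, against 15.5% of all genes. The groups separated for 2 higher and 2 lower, against 20.9% and 11.6%, and 1 of the higher, Apoa5, was at background on all arrays. The median was 0.15 (-0.044 without tumour replicate 1). Sdc1, or syndecan-1, a heparan sulfate proteoglycan that binds lipoproteins, read 8.17, 8.71 and 7.80 on tumour replicates 1, 2 and 3, against 10.81, 10.26 and 10.76 on normal replicates 1, 2 and 3. The groups were far apart, with a difference of -2.38 (SE 0.28, adjusted p = 0.0577). It passed with a 60th percentile filter (adjusted p = 0.0305) and with array weights (adjusted p = 0.0264), in a range of 0.0264 to 0.200 over 15 alternatives.

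Mgll, the monoglyceride lipase, read 8.86, 9.33 and 10.71 on tumour replicates 1, 2 and 3, against 8.23, 6.53 and 7.48 on normal replicates 1, 2 and 3. All tumour arrays were above all normal arrays, with a difference of 2.22 (SE 0.63, adjusted p = 0.216). Angptl4, a secreted inhibitor of lipoprotein lipase and a PPAR target, was named after its values were seen. It read 7.96, 11.04 and 11.16 on tumour replicates 1, 2 and 3, against 8.37, 9.21 and 9.20 on normal replicates 1, 2 and 3. Tumour replicate 1 was the lowest array and the other tumour arrays the highest, which is the reverse of the order of Lpl among the tumour arrays. The difference was 1.13 (SE 0.92, adjusted p = 0.553). It was 2.18, 0.64 and 0.57 without tumour replicates 1, 2 and 3 in turn. A probe set of it without a shared-transcript suffix differed by 0.16.

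Among lipoprotein receptors and cholesterol efflux genes the median of 16 tested was 0.0010, with 8 on each side, and -0.40 without tumour replicate 1. Lrp1, a large endocytic receptor for lipoprotein remnants that fibroblasts and macrophages also carry, stood apart. It read 5.71, 3.31 and 4.62 on tumour replicates 1, 2 and 3, against 9.47, 7.73 and 9.08 on normal replicates 1, 2 and 3. Tumour replicate 2 was at background and no arrays overlapped, with a difference of -4.21 (SE 0.74, adjusted p = 0.0976), or -2.64 as the mean of its probe sets. Among 8 fibroblast markers the groups separated for 6 with the tumour arrays lower, against 11.6% of all genes. They separated for 1, Thy1, with the tumour arrays higher, against 20.9%. Col1a2 passed the test, and the median difference of the 8 was -4.72. The part of fibroblast content in the Lrp1 difference was not tested. Lrp1 passed with array weights (adjusted p = 0.0295), in a range of 0.0295 to 0.277 over 15 alternatives. Scarb2, a lysosomal relative of Cd36 and Scarb1, differed by -0.65 (SE 0.29, adjusted p = 0.360; -0.40 without tumour replicate 3).

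In fatty acid transport and activation the median of 14 was -0.065 (0.028 without tumour replicate 3). The groups separated for 2 higher and 1 lower, and 1 of the higher, Tcf15, was at background on all arrays. The others were Slc27a1, a fatty acid transport protein, at -0.96 (SE 0.34), and Acsl4, an acyl-CoA synthetase, at 0.39 (SE 0.12). Acsl4 was 0.13 as the mean of its probe sets. Slc27a1 was -0.62 as the mean of its probe sets and -0.59 without normal replicate 1. Of 10 nuclear receptors and co-regulators, with a median of 0.12, those with the smallest p were Prdm16, a co-regulator of brown fat, at -1.56 (SE 0.58) and the transcription factor Cebpd at 0.90 (SE 0.38). As means of their probe sets these were -0.46 and 0.51. Ppara was at background on all arrays. Plin4, a lipid droplet coat protein at background on tumour replicates 2 and 3, differed by -2.45 (SE 0.61, adjusted p = 0.179), and Bscl2 or seipin by -0.61 (SE 0.38; -0.28 without tumour replicate 3 and -0.35 without normal replicate 1), in a list of 12 with a median of -0.25.

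The median of 18 fatty acid synthesis and oxidation genes was -0.49, with 11 lower and 7 higher means and the groups separated for 1 gene. The sign of this median rested on tumour replicate 3, without which it was 0.040, and it was -0.90 without tumour replicate 1 and -0.24 without normal replicate 1. That gene was Fasn, the fatty acid synthase, at -0.97 (SE 0.38, adjusted p = 0.313, and -0.63 without tumour replicate 3). The elongase Elovl6 differed by -1.47 (SE 0.59, adjusted p = 0.322). The 7 higher means were those of Elovl5 (0.21) and of genes of oxidation. These were Cpt1a (0.11), Acadm (0.17), Acadl (0.28), Acadvl (0.46), Hadha (0.12) and Hadhb (0.39). Cpt2, also of oxidation, and Pdk4 were lower (-0.53 and -0.77), as were the synthesis genes other than Elovl5. In cholesterol synthesis the median of 13 was -0.29, with 11 lower means, and it was 0.041 without tumour replicate 3 and -0.57 without tumour replicate 1. The smallest p there belonged to regulators of sterol sensing, Scap at -0.46 (SE 0.17) and Insig2 at 0.28 (SE 0.12). Over all 7 lists the counts of separated genes ranged from 1 of 18 to 4 of 12, beside 32.4% of all genes tested. These counts include genes at background on all arrays, such as Apoa5 among the 4 of 12.

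**Figure D4:**
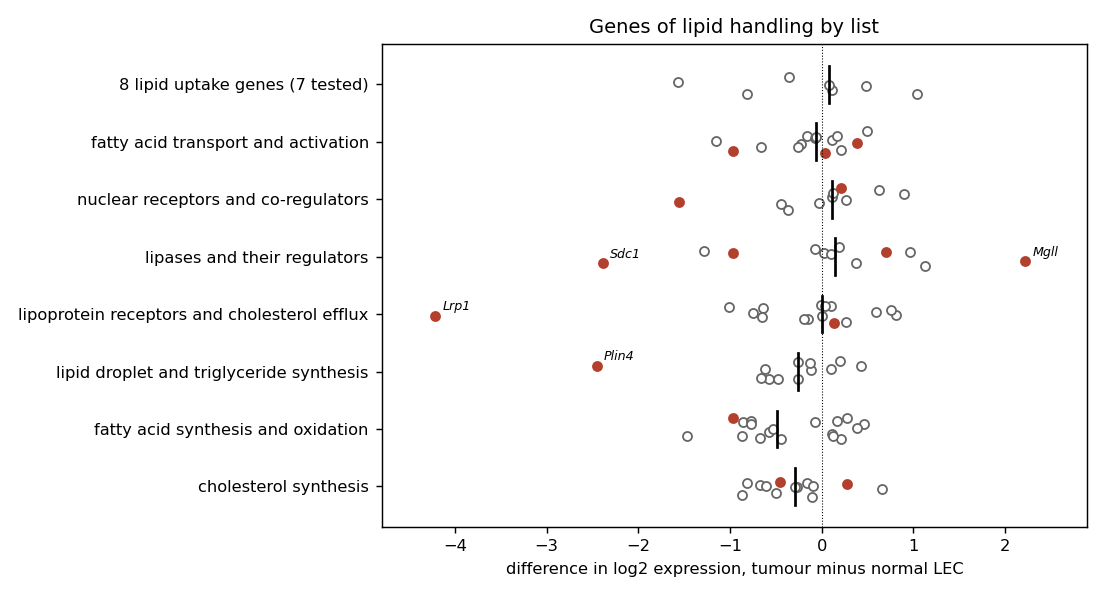
Difference in log2 expression between tumour and normal LEC (horizontal axis, tumour minus normal) for each tested gene of the 8 and of 7 lists of lipid genes (rows, jittered). Filled points are genes whose 3 tumour arrays do not overlap the 3 normal arrays, bars are list medians, and genes beyond 1.8 are named. No member of the 8 is filled, and Lrp1, Plin4, Sdc1 and Mgll lie farthest from 0. Filled points include Apoa5, Tcf15 and Olr1, which were at background on all arrays.

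Likeness of pattern was measured as the root mean square difference of log2 values, each centred on its gene mean, over the 6 arrays and 10967 other genes above background. The nearest genes to Fabp4 were Fzd4, a frizzled receptor, at 0.10 and Il7, a cytokine, at 0.11, small against its range of 2.12 over the arrays. Lpl was nearest to Ctsc, or cathepsin C, at 0.38, and to Scrn1 at 0.49, with a range of 4.73. Pparg was nearest to Galnt18 (0.23) and Cst6 (0.25), and Cd36 to Pkp2 (0.42) and Ifitm10 (0.43). For Gpihbp1 the nearest, Rragd (0.61) and Pla2g7 (0.64), were less close. Fabp5 had Zkscan14 (0.067) and Arfip2 (0.068), and Scarb1 had Ufc1 (0.079) and Urod (0.081), beside ranges of 1.07 for Fabp5 and 0.63 for Scarb1.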

How the data were processed

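The authors deposited 1 log2 expression value for each probe set and array. RMA and GCRMA are named per the submitters' processing notes, without version, role or order, so which made the deposited log2 values is not stated. Both correct background, normalize between arrays and summarise probes. GCRMA draws dim signals to a floor, which makes differences of dim genes hard to interpret. Two-cycle labelling of total RNA with biotin is given per the labels' protocols. GEO's annotation of the platform gave 34945 probe sets 1 gene each, 932 several and 9160 none. A gene took its brightest probe set by mean over the 6 arrays.

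Probe sets with a mean above the 40th percentile (2.71) were kept, which gave 12954 genes, and tumour was compared with normal LEC by limma 3.58.1 in R 4.3.3 (lmFit, eBayes, two-sided, Benjamini-Hochberg adjusted p under 0.05). The number of arrays limits the precision. An exact permutation test of 3 against 3 cannot go below 0.1, so none was run. Background was set by 27 control probe sets. The members and lists were chosen with earlier results of these data known. The lists held 188 entries, 170 of them on the array. From each of the 7 lipid lists the text names genes that passed or, with none, those with the 2 smallest p-values. It also names every member with its probe sets, the 2 genes of most like pattern per member, and defining markers. RefSeq promoter windows were searched on both strands. The steps were tested on simulated data.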

Additional observations from a re-analysis of the deposited data

How the results depend on the processing

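None of the 8 genes passed in any of 15 alternative settings (5 were testable without probe sets of shared transcripts), and 95 of 103 values of single members kept their sign. Leaving out 1 array in turn moved Fabp5 between -0.11 and 0.43, Cd36 between -1.004 and 0.67, Gpihbp1 between -0.83 and 1.57 and Scarb1 between -0.0888 and 0.23, all across 0. Fabp4 stayed between 0.61 and 1.38, Lpl between -2.69 and -0.69 and Pparg between -1.49 and -0.14. With array weights, which gave tumour replicate 2 a weight of 3.72 and tumour replicates 1 and 3 weights of 0.45 and 0.31, Gpihbp1 turned to -1.18. The cause was not tested. The number of genes past the threshold, 28 of all genes tested, was 10 with no filter, 97 with a 60th percentile filter, 385 with array weights and 46 with the replicate number as a block, and 4 to 82 with 1 array left out. The block left the member count at 0 and let Lrp1 pass (adjusted p = 0.0355, in a range of 0.0295 to 0.277). Deviations of same-numbered arrays correlated at 0.19, 0.33 and -0.0038 across genes. Tumour replicates 1 and 2 correlated best with the normal array of their own number, and tumour replicate 3 with normal replicate 2 (0.13). Whether the numbers pair the arrays cannot be told from these values. Of 238 values of the other named genes under these settings, all kept their sign, though the mean of probe sets moved Acsl4, Slc27a1, Prdm16, Cebpd, Lrp1, Scap, Angptl4 and Rxra by over 1.5 times toward 0. Sdc1, Lrp1 and Plin4 (adjusted p = 0.0496 with array weights, in a range of 0.0496 to 0.390) passed in some of them. Lipg and part of the Cd36 and Gpihbp1 values lie at or near background, where the arrays set no order.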

Other observations

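Enzymes and regulators of cholesterol synthesis shared an order of arrays within each group. All 13 genes of that list were lowest on normal replicate 3 among the normal arrays, beside 36.5% of 11105 genes above background, and 11 of the 13 were lowest on tumour replicate 3 among the tumour arrays, beside 35.5%. The median deviation of the list from the gene means was 0.64, -0.09 and -0.93 on tumour replicates 1, 2 and 3, against 0.46, 0.57 and -0.70 on normal replicates 1, 2 and 3. Fdps, which makes farnesyl pyrophosphate, read 9.46, 8.46 and 6.70 on tumour replicates 1, 2 and 3, against 9.21, 9.62 and 7.80 on normal replicates 1, 2 and 3. Dhcr7, the enzyme of the last step to cholesterol, read 8.35, 7.75 and 6.12 on tumour replicates 1, 2 and 3, against 8.38, 8.69 and 6.96 on normal replicates 1, 2 and 3. Both genes were named after their values were seen. Scd1, a fatty acid desaturase of another list, was also lowest on these 2 arrays, at 9.31 on tumour replicate 3 and 9.89 on normal replicate 3.

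The lipid droplet protein G0s2, an inhibitor of adipose triglyceride lipase, and Apoe, the apolipoprotein of remnants that macrophages secrete, followed the order of the members in tumour LEC. G0s2 read 9.25, 7.05 and 3.46 on tumour replicates 1, 2 and 3, against 8.76, 7.39 and 7.45 on normal replicates 1, 2 and 3. Apoe read 9.98, 5.62 and 3.33 on tumour replicates 1, 2 and 3, against 6.90, 5.23 and 7.24 on normal replicates 1, 2 and 3. Both were at background on tumour replicate 3, both were named after their values were seen, and the summed leukocyte markers had the same order on the tumour arrays. Their part in these values was not tested.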
